A study of Homo sapiens with 4 samples.

Results

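Among the m6A regions mapped in human embryonic stem cells, 665 were centred on an old, mammalian L1 element outside exons. N6-methyladenosine (m6A), a methylated adenosine in RNA, had been mapped with an antibody in wild-type H1 cells, an established human embryonic stem cell line that carried no knockout or overexpression in these libraries. There were 4 total-RNA libraries, 2 labelled input and 2 labelled m6A pull-down, and a single intersected set of 9900 regions on hg38 was deposited for them. That set was labelled as coming from primed human embryonic stem cells. Members were chosen by the deposited annotation alone: a centre in an intron or between genes, a repeat of the L1 family there, and a repeat name other than L1HS or L1P. They made up 6.72% of the 9900 regions. Of the 665, 494 were intronic (74.3%, interval 70.8 to 77.6%) and 171 intergenic (25.7%, 22.4 to 29.2%). No height, score or value per library came with the regions, so there was no replicate error, the depth was unknown, and the labelled cell type could not be checked against marker RNA levels. The interval beside each share is a 95% Clopper-Pearson interval (exact binomial), which takes in counting error and no other source.

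L1 elements are retrotransposons that encode an RNA-binding protein and a reverse transcriptase and copy themselves through RNA. The L1M subfamilies (L1MA to L1ME) are for the most part older than the primate L1P subfamilies. They no longer move and survive as short, diverged pieces, many of them in introns. HAL1 is a related element that lacks the reverse transcriptase. The m6A methyltransferase complex modifies RNA while it is being transcribed, so an L1 piece in an intron can carry the mark as part of an unspliced host transcript as well as in a transcript of its own. The label of a region follows the repeat at its centre, and a wide region runs over much more sequence than that repeat.

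Known sequence inside the members came from microRNA genes and gene starts that lie wholly within them. They are shown because they mark what else the wide members cover. Of the 665 members, 3 held a whole microRNA hairpin of the RefSeq table (GRCh38.p14), all in regions far wider than an L1 piece. MIR626 lay in a 17178 bp HAL1 member in intron 2 of 23 of MGA, a DNA-binding partner of MAX. MIR1270 lay in an 8695 bp L1M4 member in the pseudogene ZNF826P. MIR339 lay in a 49005 bp L1MC1 member in CHLSN. The hairpins were 8514, 2475 and 11588 bp from the centres that gave these regions their L1 label. Their mature sequences follow, 5′ to 3′, with the seed (bases 2 to 8) in capitals.
hsa-miR-626: aGCUGUCUgaaaaugucuu
hsa-miR-1270: cUGGAGAUauggaagagcugugu
hsa-miR-339-3p: uGAGCGCCucgacgacagagccg
hsa-miR-339-5p: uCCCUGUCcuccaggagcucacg

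The seeds of these mature microRNAs all differed from one another. A whole promoter window, running from 250 bases before to 50 after a gene's start, lay inside 18 members, the narrowest of them 7489 bp wide. Neither this count nor that of hairpins was made for other regions, so neither can be read as particular to the members. In 7 of the 18 the window belonged to the member's own host gene. In 4 of these the member was centred in intron 1 and its edge lay 317 to 516 bp beyond the start site on which the window was built. For CFAP210 and MBTPS1 this was also the outer bound of the gene. For CCDC112 and FBXO5 the gene table bounds the gene further out, so these members stayed inside the host. They were those of CFAP210, a ciliary protein (chr2:169687264-169694752, 7489 bp, centre at L1MB7), CCDC112 (chr5:115276014-115296607, 20594 bp, L1MB7), FBXO5, an inhibitor of the anaphase-promoting complex (chr6:152975065-152983557, 8493 bp, L1MC3), and MBTPS1, the site-1 protease that activates sterol-regulatory factors (chr16:84101911-84117411, 15501 bp, L1MC4). Their RefSeq promoter windows (GRCh38.p14, minus strand for all 4) are given as an example of promoter sequence that lay wholly inside members labelled by an L1 at their centre. Capitals mark GGACT, the core m6A motif, or AGTCC, the same motif on the opposite strand.
CFAP210, chr2:169694356-169694655, minus strand: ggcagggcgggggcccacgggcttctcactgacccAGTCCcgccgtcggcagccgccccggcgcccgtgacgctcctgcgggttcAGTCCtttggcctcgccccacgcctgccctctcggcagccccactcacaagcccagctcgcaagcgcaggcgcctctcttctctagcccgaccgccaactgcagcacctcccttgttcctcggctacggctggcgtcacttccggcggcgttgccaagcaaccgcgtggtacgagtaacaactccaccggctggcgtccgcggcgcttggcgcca
CCDC112, chr5:115296241-115296540, minus strand: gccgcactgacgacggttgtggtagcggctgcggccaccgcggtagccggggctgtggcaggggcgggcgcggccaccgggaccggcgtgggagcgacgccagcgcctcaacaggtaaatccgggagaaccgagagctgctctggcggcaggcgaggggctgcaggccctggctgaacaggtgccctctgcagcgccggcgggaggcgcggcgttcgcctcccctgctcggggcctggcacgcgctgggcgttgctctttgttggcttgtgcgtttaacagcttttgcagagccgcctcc
FBXO5, chr6:152982992-152983291, minus strand: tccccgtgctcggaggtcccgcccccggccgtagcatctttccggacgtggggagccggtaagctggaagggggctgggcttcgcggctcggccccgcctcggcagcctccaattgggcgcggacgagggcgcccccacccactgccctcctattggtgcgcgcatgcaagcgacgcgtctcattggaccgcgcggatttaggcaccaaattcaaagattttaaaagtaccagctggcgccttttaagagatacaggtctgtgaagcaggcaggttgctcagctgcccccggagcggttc
MBTPS1, chr16:84116893-84117192, minus strand: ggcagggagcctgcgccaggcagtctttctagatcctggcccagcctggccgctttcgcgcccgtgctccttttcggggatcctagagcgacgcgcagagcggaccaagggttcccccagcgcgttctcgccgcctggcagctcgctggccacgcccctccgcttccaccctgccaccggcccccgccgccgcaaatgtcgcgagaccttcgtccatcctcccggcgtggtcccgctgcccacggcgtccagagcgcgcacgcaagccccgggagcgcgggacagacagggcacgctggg

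CFAP210 held AGTCC at 2 places and the other 3 windows held neither motif. Of all 35116 promoter windows in the table, 44.2% held at least 1 of them. A match is a description of these letters and not a mapped site.

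The members spanned all groups of mammalian L1. They carried 83 different repeat names, 26 of them with 10 or more members and 14 with 1. L1MA, the group closest in age to the primate elements, was the largest with 155 members, followed by L1ME with 134, names made of L1M and a digit with 124, L1MC with 88, L1MB with 81, L1MD with 50 and HAL1 with 33. L1MA3 was the most frequent single name, with 30 members, ahead of L1MA2 with 26 and HAL1 itself and L1M2 with 23 each. No name held more than a small part of the set.

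Width and place varied among these groups. Median width was 1502 bp in L1MA, 1416 bp in L1M with a digit and 1199 bp in HAL1, against 3031 bp in L1MB, 1867 bp in L1MC, 2028 bp in L1MD and 2292 bp in L1ME. Regions over 5 kb made up 17.4% of L1MA (interval 11.8 to 24.3%), 42.0% of L1MB (31.1 to 53.5%) and 38.1% of L1ME (29.8 to 46.8%). HAL1 members had the lowest median width but quartiles of 939 and 12907 bp, and 12 of the 33 were over 5 kb (36.4%, 20.4 to 54.9%). The intergenic share was 39.4% in L1MA (31.6 to 47.5%), 9.88% in L1MB (4.36 to 18.5%) and 14.9% in L1ME (9.36 to 22.1%). Within L1MA, the 105 members named L1MA1 to L1MA4A had an intergenic share of 42.9% (33.2 to 52.9%) and the 50 named L1MA5 to L1MA10 one of 32.0% (19.5 to 46.7%), so these intervals overlapped. These group values are descriptions and no test was run between the groups.

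**Figure D1:**
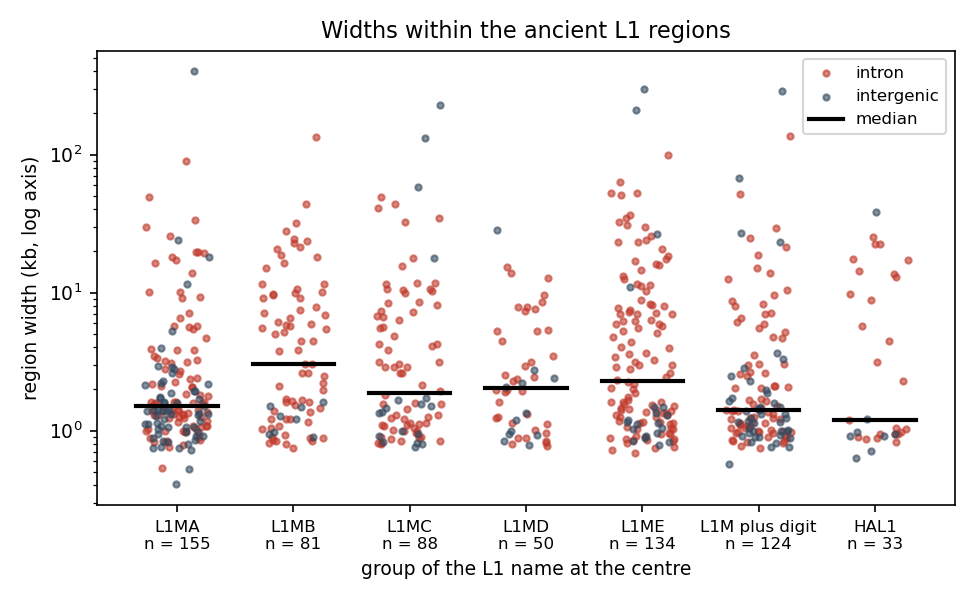
Width of each of the 665 members (vertical axis, kb, log axis) by the group of the L1 name at its centre, with intronic members in red, intergenic members in dark blue and the median as a black bar. Medians run from 1199 bp in HAL1 to 3031 bp in L1MB, and intergenic members gather in the narrow part of L1MA and of L1M with a digit.

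Ancient L1 regions were over 5 kb wide far more often than regions at older primate L1, a class set by repeat name. The narrowest member was 408 bp (L1MA2, between genes, 167374 bp from the USP25 start site) and the widest 400694 bp (L1MA6, chr3:89464625-89865318, annotated as intergenic by its centre). The median was 1624 bp, with quartiles of 1069 and 5925 bp. Of the 665 members, 191 were over 5 kb (28.7%, interval 25.3 to 32.3%), where 15.4% of all 9900 regions and 23.4% of all 6282 intronic and intergenic regions were. Among the 263 regions at older primate L1 (L1P names other than L1PA), 13 were over 5 kb (4.94%, 2.66 to 8.3%). The difference was 23.8 percentage points (interval 19.1 to 27.9; Fisher's exact test, two-sided, adjusted p = 2.65e-17, over 12 tests). Against the 260 regions at L2 and MIR, which are older mammalian repeats, the difference was -5.89 points (-12.7 to 0.672; adjusted Fisher's exact p = 0.162). Against the 2505 regions with no repeat at the centre it was 2.02 points (-1.74 to 5.95; adjusted Fisher's exact p = 0.455). With 2 kb in place of 5 kb as the limit, the members were less often wide than both, by -20.3 points against L2 and MIR (adjusted Fisher's exact p = 1.05e-07) and -5.59 points against regions without a repeat (0.0227). Leaving out regions under 1 kb, the members were more often over 5 kb than regions without a repeat (5.64 points, adjusted Fisher's exact p = 0.0339). This last alternative was chosen after seeing the data, while the 2 kb limit was planned. The tests count regions of 1 set as independent, though many share a host gene.

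**Figure D2:**
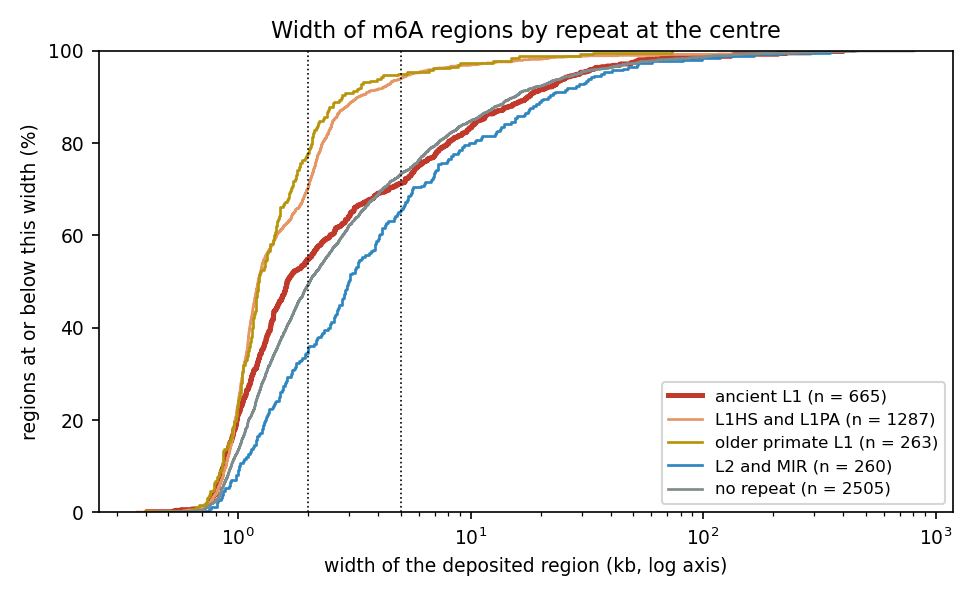
Cumulative share of regions (vertical axis, %) up to each width (horizontal axis, kb, log axis) for the members and 4 other classes of intronic and intergenic regions, with dotted lines at 2 and 5 kb. The lower quartile of the members (1069 bp) was near those of L1HS and L1PA (1008 bp) and older primate L1 (1012 bp). Up to 2 kb the members (54.9%) were nearer to regions without a repeat (49.3%) than to L1HS and L1PA (70.4%) or older primate L1 (77.6%). Over 5 kb the members had 28.7% and regions without a repeat 26.7%.

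The members' intronic share was between that of primate L1 regions and those of L2 and MIR regions and of regions without a repeat. Introns held 74.3% of the members, where 79.1% of all intronic and intergenic regions were intronic. The share was 56.3% at older primate L1, 93.1% at L2 and MIR (89.3 to 95.8%) and 89.8% where the centre had no repeat (88.6 to 91.0%). The members were thus more often intronic than older primate L1 regions by 18.0 points (11.2 to 24.8; adjusted Fisher's exact p = 4.90e-07). They were less often intronic than L2 and MIR regions, with a difference of -18.8 points (-23.1 to -13.9; adjusted Fisher's exact p = 3.43e-11), and than regions without a repeat, with one of -15.5 points (-19.2 to -12.1; adjusted Fisher's exact p = 1.90e-21).

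**Figure D3:**
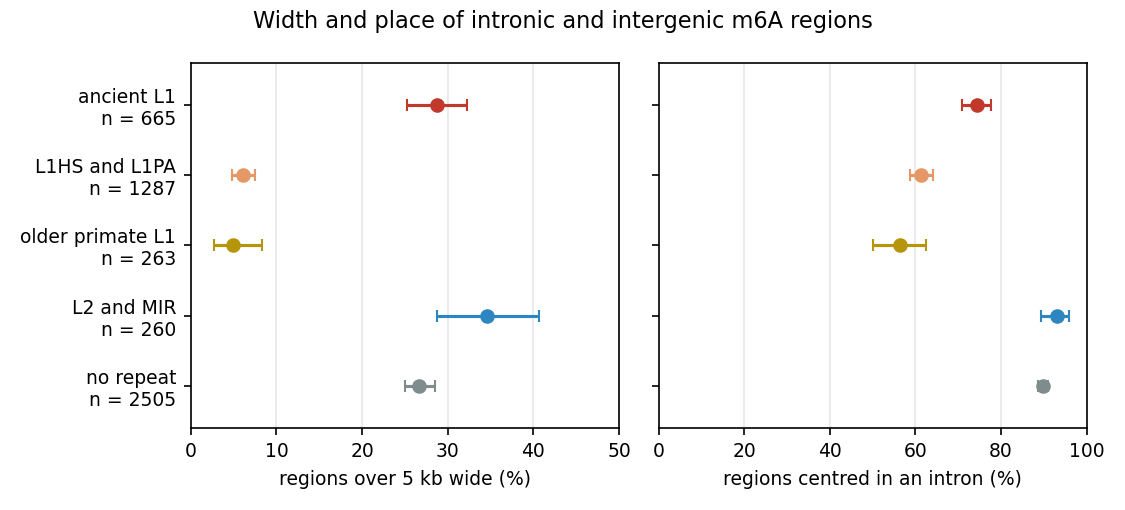
Share of regions over 5 kb (left, %) and share centred in an intron (right, %) for the members and 4 other classes, as points with 95% exact binomial intervals. The members stand with L2, MIR and repeat-free regions on the left (28.7%) and between these and primate L1 on the right (74.3%). Regions at other repeats, with 32.7% over 5 kb and 80.1% in introns, are not drawn.

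Width and place went together. Of the 365 members up to 2 kb, 36.7% were intergenic (interval 31.8 to 41.9%), of the 109 members between 2 and 5 kb 16.5% (10.1 to 24.8%), and of the 191 over 5 kb 9.95% (6.1 to 15.1%). Regions at L1HS and L1PA were intergenic in 36.9% of cases up to 2 kb (33.7 to 40.1%) and in 26.9% over 5 kb (17.5 to 38.2%). Without a repeat these shares were 15.6% (13.6 to 17.8%) and 7.03% (5.21 to 9.23%). The 1302 regions at other repeats came near the members at both ends. Their shares were 34.7% up to 2 kb, 8.4% between 2 and 5 kb and 11.5% over 5 kb. Among regions up to 2 kb, the intronic share of the members was 7.41 points above that of older primate L1 and did not pass the test (adjusted Fisher's exact p = 0.358), while it was -23.4 points from L2 and MIR (5.25e-05) and -21.1 points from regions without a repeat (7.48e-16). Among regions over 2 kb, all 3 intronic differences passed, with 30.0 points against older primate L1 (adjusted Fisher's exact p = 2.33e-06), -8.8 against L2 and MIR (0.00313) and -7.45 against regions without a repeat (3.75e-05). Among regions over 5 kb, a limit added after seeing the data, the intronic share of the members passed against none of the 3 classes, with differences of 5.44 points (adjusted Fisher's exact p = 1), -3.28 points (1) and -2.92 points (0.865). Only 13 older primate L1 regions were that wide.

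**Figure D4:**
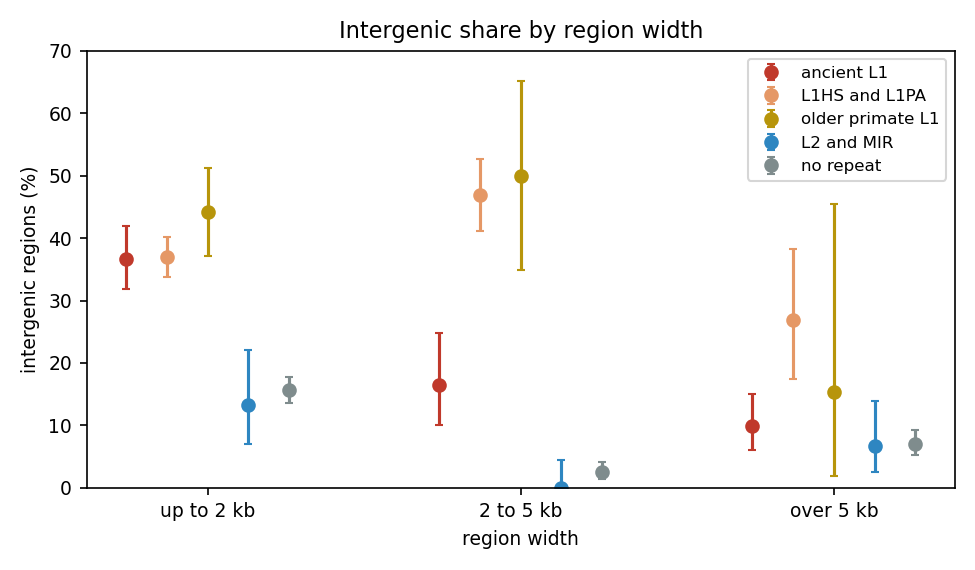
Share of regions between genes (vertical axis, %) in 3 classes of width, with 95% exact binomial intervals, for the members and 4 other classes. The members start at 36.7% beside L1HS and L1PA and reach 9.95% over 5 kb, beside regions without a repeat. Regions at other repeats, with 34.7% up to 2 kb and 11.5% over 5 kb, are not drawn.

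Within introns, the members were spread along their hosts. The first intron held 128 of the 494 intronic members (25.9%, interval 22.1 to 30.0%), where 26.5% of all intronic regions were in a first intron. This differed by 2.26 points from older primate L1, -6.32 from L2 and MIR and -0.845 from regions without a repeat, and none passed (adjusted Fisher's exact p of 0.803, 0.162 and 0.803). The host gene could be named for 491 members and its strand was known for 386, whose centres lay at a median of 51.3% of the gene length from its start (quartiles 27.8 and 77.7%). Counted by member, the host gene had a median length of 106263 bp and was over 100 kb in 51.9% of cases. Counted the same way, the median was 199014 bp for older primate L1 regions and 65582 bp for regions without a repeat.

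The upstream edge of a member lay within 2 kb of the gene start, or beyond it, in 38 of 386 members of known strand (9.84%). The count was 27 of 143 among members over 5 kb (18.9%) and 9 of 178 among those up to 2 kb (5.06%). Of the 51 members over 5 kb in a first intron, 23 lay so (45.1%), compared with 8 of 38 members up to 2 kb in first introns (21.1%). A wider region reaches further by its size alone, and this was not held fixed. These edge counts, and the shares of hosts covered that follow, were not made for regions of other classes. They cannot be read as particular to the members. Members over 5 kb covered a median of 13.2% of their host (quartiles 5.52 and 32.1%, n = 143), and those up to 2 kb 1.0% (0.449 and 1.9%, n = 178). In 14 of the 386 cases of known strand the member covered most of the host, and members of unknown strand were not counted here. Among them were TOP1, which encodes DNA topoisomerase I, with 63089 bp (65.9% of the gene), YWHAQ, a 14-3-3 protein, with 32516 bp (69.1%), SLC26A2, a sulfate transporter, with 15162 bp (56.9%), CCDC112 with 69.9% and FBXO5 with 65.1%. The zinc finger genes ZNF239, ZNF382, ZNF566 and ZNF681 were covered to 61.8, 60.6, 53.7 and 58.5%. The exception in width among these 14 was LNCPRESS1, a short non-coding RNA gene covered to 95.9% by a member of 1663 bp.

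The 491 members with a named host lay in 443 genes, of which 406 were protein-coding, 2.02% of all 20056 protein-coding genes, where 15.8% held an intronic region of any kind. A single member was found in 399 hosts and 2 or more in 44. MAN1A2, a Golgi mannosidase that trims N-glycans, held the most, with 4 in introns 2, 3, 8 and 12 of 12. These were 2020, 5257, 841 and 745 bp wide and were centred on L1M4, L1MD, L1MB4 and L1MEc. They were 4 of the 5 intronic regions of the gene. SCAPER, which binds cyclin A at the endoplasmic reticulum, held 3 of 979, 19709 and 25369 bp in introns 25, 17 and 15 of 32.

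Of the 44 hosts with several members, 8 held only members over 5 kb, 13 held both wider and narrower ones and 23 held none over 5 kb. Those with the most bases covered follow. CWC27, a spliceosome-associated cyclophilin, held members of 90224 bp (L1MA7) and 99885 bp (L1ME1), which together covered 76.1% of its 249846 bp. SATL1 on the X chromosome held members of 48918 and 17148 bp (43.6% of the gene), INTU, which acts in cilium formation, of 5681 and 31126 bp (39.2%), and ILRUN of 31881 and 5888 bp (34.5%). In CSTF3, a subunit of the cleavage stimulation factor of mRNA 3′ ends, a member of 18660 bp in intron 1 of 20 stood beside one of 688 bp in intron 3, the narrowest of all L1ME members. STAG1, a cohesin subunit, held members of 5968 and 10540 bp, and ATRX, a chromatin remodeler of heterochromatin, of 7129 and 11461 bp in introns 34 and 12 of 34. The spindle checkpoint gene MAD1L1 held members of 12596 and 8402 bp. Microtubule-associated MAP7 held members of 9702 and 10090 bp, both in intron 1, and the kinase STK10 of 2984 and 18404 bp. CCDC91, a protein of Golgi transport, held members of 1012 and 33745 bp, and KIAA1328 of 8841 and 2239 bp. Of all 665 members, 249 lay within 10 kb of another m6A region and 144 had none within 100 kb. The median gap to the nearest region was 20551 bp for members and 27622 bp for all 9900 regions. It was 21866 bp without a repeat, 30220 bp at L2 and MIR, 34041 bp at older primate L1 and 20445 bp at other repeats. In 219 of the 443 hosts there was also an intronic region that was not a member, and in 92 a region at a primate L1. These host counts were not set against hosts of other classes.

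Over all widths together, the share of members in genes that also held an exonic region did not pass against any of the 3 classes compared. Of the 491 members with a named host, 95 lay in a gene that also held an exonic region (19.3%, interval 15.9 to 23.1%), where 20.4% of all intronic regions did. The differences were 0.981 points against older primate L1 (-6.77 to 7.56), -1.24 against L2 and MIR (-7.7 to 4.72) and -2.99 against regions without a repeat (-6.7 to 1.09; adjusted Fisher's exact p of 0.905, 0.803 and 0.283). Over 5 kb the share was 13.5% of 171 members (8.72 to 19.5%) and 23.4% of 620 regions without a repeat (20.1 to 26.9%). It was 22.9% of 83 regions at L2 and MIR (14.4 to 33.4%) and 18.2% of 11 at older primate L1 (2.28 to 51.8%). Up to 2 kb it was 21.6% for members, 23.0% without a repeat, 16.9% at L2 and MIR and 16.8% at older primate L1. No test of the shares over 5 kb is given here, and that width limit was added after seeing the data. The intervals over 5 kb of members and of regions without a repeat did not overlap. By genes, 86 of the 443 hosts held an exonic region. PCLO, a scaffold of the presynaptic active zone, had 6 and held an 828 bp HAL1ME member in intron 2 of 24. MGA had 3 exonic regions beside its 17178 bp member. KNDC1, with 2 exonic regions, held narrow members of 999 and 800 bp, and GOLGB1, the Golgi protein giantin, also with 2, held a 14330 bp HAL1M8 member in intron 1 of 21. CRKL, a signalling adaptor, had a member of 16478 bp, and GLCE, an enzyme of heparan sulfate synthesis, one of 5635 bp, each beside 2 exonic regions.

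Long non-coding RNA genes hosted 32 of the 491 members (6.52%), in 27 genes, where they hosted 5.71% of all intronic regions with a named host and 14.3% of those at older primate L1. No test of this share was run. Among the members the share was 9.96% up to 2 kb and 1.75% over 5 kb. It was also lower over 5 kb at other repeats (8.93 and 2.39%), L2 and MIR (5.19 and 1.2%) and L1HS and L1PA (12.3 and 8.77%). The same held without a repeat (4.16 and 2.9%), but not at older primate L1 (13.3 and 18.2%, the latter of 11 regions). XACT, a long non-coding RNA of pluripotent human cells that coats the active X chromosome, held 3, of 2600 bp (L1M1), 871 bp (L1ME1) and 3488 bp (L1MA4), all in intron 1 of 2 of the annotated transcript. They lay at chrX:113623179-113625778, chrX:113680922-113681792 and chrX:113925260-113928747, and all 8 intronic regions of XACT were at L1, the other 5 at L1PA. The gene table bounds XACT more narrowly than that transcript, so no share of the gene is given. JPX, a non-coding activator of X inactivation, held members of 1318 bp (L1MA7) and 1613 bp (L1MA1) in introns 3 and 4 of 4. On chromosome 7, members of 1663, 1710 and 1374 bp, all at L1M2, lay in a row in LNCPRESS1, just beyond it and in the neighbouring EMSLR. LNCPRESS1 is a p53-regulated RNA of embryonic stem cells. CASC15 held 2 members at L1MA5, of 1056 and 1855 bp.

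Among the chromosomes, X had the highest share of members. Of its 443 regions, 54 were members (12.2%, interval 9.29 to 15.6%), against 611 of 9457 on the other chromosomes (6.46%, 5.97 to 6.98%). Chromosomes 6 and 7 followed with 8.97% and 8.89%, chromosome 19 had 4.08% and chromosome 16 had 4.28%. None of the 20 regions on the Y chromosome was a member, which allows a share of up to 16.8% by the exact interval. Counted by class, 8.12% of the members were on the X chromosome (6.16 to 10.5%), against 13.3% of older primate L1 regions (9.45 to 18.0%), 9.25% of L1HS and L1PA regions and 3.15% of regions without a repeat. The X chromosome is known to be rich in L1 sequence, whose part in this difference was not tested, and no test across chromosomes was run. On the X, 21 of 54 members were intergenic (38.9%), against 150 of 611 elsewhere (24.5%), and 12 were over 5 kb (22.2% against 29.3%).

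A cluster of intergenic members stood out on the long arm of the X chromosome. Between positions 94397946 and 95207369, a stretch of 809424 bp around the microRNA gene MIR548M, there were 16 regions, all of them intergenic and all at repeats: 7 members, 4 at L1PA elements, 3 at older primate L1 and 2 at other repeats. The members were 856 to 1975 bp wide and were centred on L1MA1, L1MA2, L1MA7, L1M1 and L1M2. The gene table held no protein-coding gene in the stretch, and its long non-coding RNA gene LOC107985704 held the centre of 1 member. The stretch was chosen after its values were seen. By fixed bins of 1 Mb, 517 bins held a member and 400 of these a single one, and the fullest bin held 5, on the X chromosome over XACT and LOC101928437.

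**Figure D5:**
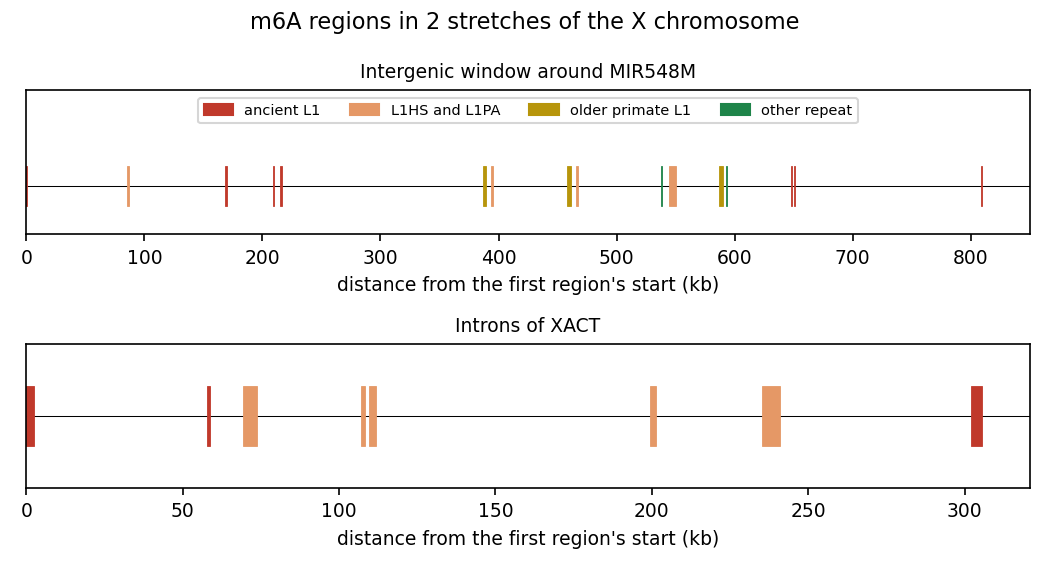
Regions drawn to scale as bars along 2 stretches of the X chromosome, by distance from the start of the first region (horizontal axis, kb), coloured by the repeat at the centre. Upper row, 16 intergenic regions around MIR548M, 7 of them members in red; lower row, the 8 intronic regions of XACT, 3 of them members.

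The 171 intergenic members were mostly narrow and far from known starts. They had a median width of 1280 bp, with 11.1% over 5 kb, and a median distance of 42603 bp to the nearest start site (quartiles 15569 and 144300 bp). Of these, 97 were upstream and 74 downstream of that site, 28 were within 10 kb of it and 57 were over 100 kb away. In the newer gene table (GRCh38.p14), 57 centres lay inside an annotated gene, 31 of them inside a long non-coding RNA gene and 18 inside a protein-coding one, and 103 members overlapped no gene. The nearest to a start was an L1MEf member of 1123 bp, 1662 bp upstream of FANCA, a DNA repair gene. ZNF184 followed with a 799 bp L1MC1 member 1690 bp upstream, and then members 2875 bp upstream of DENND3 and 3086 bp upstream of SLC38A9. A 26977 bp member annotated 2615 bp upstream of a ZNF799 start had its centre inside ZNF799 in the newer table and ran over that gene. The ZNF184 and DENND3 members had their centres inside long non-coding RNA genes of the newer table. At the other end, L1MA3, L1M2 and L1MCa members lay 841689, 821720 and 819433 bp from LINC02223, CSMD3 and POM121L12.

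The extremes of single groups showed the same spread inside genes. The narrowest L1MB member, of 750 bp at L1MB7, lay in intron 13 of 27 of KATNIP, a ciliary protein, and the widest, of 133768 bp at L1MB5, in intron 11 of 13 of RABGAP1L, a Rab GTPase-activating protein. SENP6, a SUMO protease, held the narrowest L1MD member, of 769 bp in intron 15 of 22. Of those annotated as intergenic, the narrowest L1MC member measured 760 bp (nearest start site GAS2L1P2), the widest L1MD member 28533 bp (HLA-H) and the widest HAL1 member 38649 bp (MIR1297). The narrowest members of all, after the 408 bp one, measured 526 bp (nearest start site LINC02562, L1MA1), 537 bp (in OPCML, L1MA4), 569 bp (ABHD2, L1M4) and 633 bp (LOC401312, HAL1).

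The 5 widest members were all annotated as intergenic by their centres, and each ran over 4 to 19 genes of the newer table. They measured 400694 bp (nearest start site EPHA3, L1MA6), 298618 bp (SPDYE8P, L1ME4a), 290760 bp (DEFB130A, L1M3), 227238 bp (POM121L12, L1MCa) and 210287 bp (SLC36A4, L1ME3B). The widest overlapped EPHA3 itself, and the last of these SLC36A4. The SPDYE and DEFB130 stretches belong to segmental duplications, where near-identical copies share reads. The sources used here do not say how reads with several alignments were treated, so positions within these regions, and in other near-identical copies, are uncertain.

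Genes of the m6A machinery, of pluripotency and of germ cell specification hosted no intronic member. The counts were 0 of 24 genes (interval up to 14.2%), 0 of 29 (up to 11.9%) and 0 of 20 (up to 16.8%), and these upper limits lie well above the 2.02% of all protein-coding genes. Intronic regions of any kind were found in 7, 5 and 3 of these genes. Of 20 genes that silence L1 or bind its RNA, 2 hosted a member: SAFB2, a nuclear RNA-binding scaffold protein, with 1499 bp at L1M5 in intron 2 of 20, and DNMT1, the maintenance DNA methyltransferase, with 2894 bp at L1MC5 in intron 5 of 39. Of 29 genes of fragile sites or great length, 4 did (13.8%, 3.89 to 31.7%), and 17 held some intronic region. FHIT, MACROD2 and NBEA held narrow members of 1572, 1288 and 1419 bp, and FOXP1 one of 7023 bp in intron 19 of 19.

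Of 30 neuronal adhesion and synapse genes, CSMD2 and OPCML hosted a member (6.67%), of 851 and 537 bp, the latter the narrowest of all intronic members. Of 30 DNA repair and replication genes, FANCD2, of the Fanconi anaemia pathway, hosted 1 of 986 bp in intron 26 of 43 (3.33%). Of 20 ubiquitin ligase and vesicle traffic genes, EXOC6B, an exocyst subunit, hosted members of 1394 and 5418 bp, and LRBA 1 of 6277 bp. Gene length was not held fixed in any of these counts, and no list was tested.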

How the data were processed

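Wild-type H1 cells gave 2 input and 2 m6A pull-down libraries, grouped by their titles. HOMER, bedtools 2.30.0, MACS2 2.2.7.1, SAMtools 1.6, HISAT2 2.2.1 and Trim Galore 0.6.7 were used on hg38, per the submitters' processing notes; the sources used here do not say what was intersected or with which settings. The authors deposited region positions and signed distances to start sites in base pairs, with a HOMER annotation; no count or depth per library was used, so precision rests on the number of regions. Members and comparison classes were taken from that annotation. Host genes were named by transcript in a RefSeq table of GRCh38.p14 (7972 of 8028 regions matched); lengths and strands were used only where that gene held the centre (488 intronic members). Exonic regions were those annotated to coding, UTR or non-coding exons. Shares of regions were compared by two-sided Fisher's exact tests with Benjamini-Hochberg adjustment over 12 tests (threshold 0.05), with Newcombe intervals for differences (Python 3.11.15, scipy 1.17.1, statsmodels 0.14.6); the code was tested on simulated data. The members, gene lists and tests were chosen with earlier results of these data known.

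Named were hosts with 2 or more members (up to 15), the 5 widest and 5 narrowest members, the widest and narrowest of each L1 group, the intergenic members nearest to (5) and farthest from (3) a start site, listed genes with a member (up to 6 a list), and the 6 hosts with most exonic regions. The genes whose start or microRNA lay in a member, those covered over most of their length (50%), JPX, LNCPRESS1, EMSLR, CASC15 and the MIR548M stretch were picked with their values in view. The motif search at the regions themselves, which needs a genome sequence, was not run.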

Additional observations from a re-analysis of the deposited data

How the results depend on the processing

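No paired analysis was possible because 1 region set was deposited for all libraries, so neither a replicate block nor leaving out a replicate could be run. Of 58 alternative test values, 45 kept their direction and side of the threshold. The larger share over 5 kb than at older primate L1 kept both under each alternative run. With 2 kb as the limit of a wide region the differences were -20.3 points against L2 and MIR and -5.59 points against regions without a repeat, and with regions of 1 kb or more (chosen, like the next alternative, after seeing the data) the latter was 5.64. The intronic differences were no longer called over 5 kb (5.44, -3.28 and -2.92 points) and, against older primate L1, up to 2 kb (7.41). Differences that were not called changed sign as follows. For first introns they were -2.03 points against older primate L1 up to 2 kb, and against regions without a repeat 0.858 with transcripts of 5 or more introns and 1.02 without CpG islands, another alternative chosen after seeing the data. For hosts with an exonic region they were 4.76 against L2 and MIR up to 2 kb, 0.567 with the nearest start site taken as host, and -0.663 against older primate L1 with regions of 1 kb or more. The cause was not tested. The member count of 665 was 365 with regions up to 2 kb only. The median width of 1624 bp was 2271 bp for intronic and 1280 bp for intergenic members, and the median distance to a start site of 29995 bp was 36339 bp up to 2 kb.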
